A study of Mus musculus with 4 samples.

Results

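A set of 7 genes known from tuft cells, the rare chemosensory cells of the gut lining, was followed in cells of the mouse distal small intestine. They were taken by name from the 32285 genes measured: Alox5, Alox5ap, Ltc4s, Ptgs1, Hpgds, Ptprc and Bmx. The mice carried Lgr5-EGFP-IRES-CreERT2 and Rosa26-mTmG, so that 4-OH-tamoxifen recombined the reporter in cells driven by the Lgr5 promoter, a stem cell promoter, and their offspring turned green. There were 4 groups of cells: GFP-high clones traced for 48 h and GFP-negative control cells of the same 4 mice, and GFP-high clones traced for 72 h and GFP-negative control cells of the same 4 other mice. All mice carried both alleles and had the inducer, and the villi were scraped off before the crypts were taken apart. The cells of 8 mice were tagged with a hashtag antibody per mouse and sequenced in a pair of pools, each holding clone cells of 4 mice and control cells of the other 4. A CD45 antibody, which binds the protein made from Ptprc, was in the stain together with an antibody against CD31, and the gate drawn on it is not given in the sources used here.

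The 5 eicosanoid genes belong to a pair of routes that start from arachidonic acid. Ptgs1 encodes cyclooxygenase 1, which makes prostaglandin H2, and Hpgds encodes the synthase that turns it into prostaglandin D2. Alox5 encodes 5-lipoxygenase, Alox5ap the membrane protein that presents arachidonic acid to it, and Ltc4s the enzyme that adds glutathione to leukotriene A4 to give the first of the cysteinyl leukotrienes. Ptprc encodes CD45, the receptor phosphatase used to mark leukocytes, and Bmx is a kinase of the Tec family. Tuft cells are known to answer parasites with interleukin 25 and with cysteinyl leukotrienes, and lipid mediators and signalling proteins better known from leukocytes have been described in them.

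The genes lie apart in the genome. In GENCODE M21 (GRCm38), Alox5 (ENSMUSG00000025701) lies at chr6:116410077-116461178 on the minus strand and Alox5ap (ENSMUSG00000060063) at chr5:149264767-149288153 on the plus strand. Ltc4s (ENSMUSG00000020377) lies at chr11:50236461-50238616 on the minus strand, Ptgs1 (ENSMUSG00000047250) at chr2:36230426-36252272 on the plus strand and Hpgds (ENSMUSG00000029919) at chr6:65117293-65144908 on the minus strand. Ptprc (ENSMUSG00000026395) lies at chr1:138062861-138175708 and Bmx (ENSMUSG00000031377) at chrX:164192842-164258193, both on the minus strand. Alox5ap, Ltc4s, Ptgs1, Hpgds and Ptprc each overlap at least 1 other annotated gene, so reads there may be shared. Of the 7 genes, 6 had an entry in the RefSeq promoter table (GRCm38.p6; 250 bases before to 50 after the start), and Alox5ap had none.

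A pair of short motifs was looked for on both strands of these promoters: ATGCAAAT, the octamer of POU factors such as the tuft cell regulator Pou2f3, and GAGGAAGT, a purine-rich ETS motif of the kind bound by factors such as Spib. The motifs do not overlap, and they were chosen with the sequences in view. The octamer stood in 1 of the 6 promoters, that of Hpgds, and in 570 of all 32851 promoters of this length (1.74%). The ETS motif stood in the promoters of Ptgs1 and Hpgds, and in 1052 of the 32851 (3.20%). Shown here are the stretch before the Ptgs1 start (chr2:36230176-36230425, plus strand, motif at -24 from the RefSeq start), the stretch before the Alox5 start as a stretch without either motif (chr6:116461179-116461428, minus strand), and the 30 bases around each Hpgds motif (chr6:65144886-65144915, at -174, and chr6:65144761-65144790, at -49, minus strand, both overlapping the longer GENCODE gene). Capitals mark the motif, and a match is a description of letters and not of binding.
Ptgs1: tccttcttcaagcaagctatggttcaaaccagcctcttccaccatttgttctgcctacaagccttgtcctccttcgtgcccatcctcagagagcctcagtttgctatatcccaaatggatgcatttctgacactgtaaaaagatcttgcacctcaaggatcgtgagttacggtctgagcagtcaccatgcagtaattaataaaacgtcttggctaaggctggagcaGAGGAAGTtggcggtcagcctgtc
Alox5: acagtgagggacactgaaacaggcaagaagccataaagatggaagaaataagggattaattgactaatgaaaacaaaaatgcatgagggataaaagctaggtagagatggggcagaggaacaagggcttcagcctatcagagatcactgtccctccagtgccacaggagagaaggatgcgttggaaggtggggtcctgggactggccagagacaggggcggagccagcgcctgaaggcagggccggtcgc
Hpgds octamer: ctttactctttATGCAAATacgttggacta
Hpgds ETS: gcttttaggtgGAGGAAGTggcctctggct

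After filtering, 1993 cells with 1 hashtag remained, with a median of 18684 UMIs (unique molecular identifiers, each standing for 1 captured RNA molecule). Clustering, from which the 7 genes were left out, gave 1 cluster that carried the tuft markers. Its 47 cells (2.36% of all) were led by Rgs13, Dclk1, Lrmp, Fyb, Sh2d6, Kctd12, Avil, Gng13 and Trpm5 among others, all 10 fixed tuft markers were raised in it, and it is called tuft-like here. Its cells were shallower than the rest, with a median of 10264 UMIs (range 3616 to 36509), against 18993 in all other cells. Mouse 8 gave 21 of them, mouse 3 gave 0 and mouse 7 gave 1, and the other 5 mice gave 3 to 6 each. Defining markers of leukocytes were nearly silent in the cluster: 13 of 16 had 0 UMIs, Itgam had 8, Itgae 3 and Gzma 1. The summed level of that list ranged from 0 to 56.6 CPM (the UMIs of a gene scaled to a common total in every sum) in the tuft-like cells of 6 mice and from 12.8 to 39.1 CPM in their other cells. All 6 mast cell markers and all 5 stromal markers had 0 UMIs in the tuft-like cells, as did 4 of 5 endothelial markers, the fifth being Plvap with 4 UMIs.

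Most tuft-like cells held most of the genes. Ltc4s was detected in 44 of the 47 tuft-like cells (93.6%), Alox5ap in 43 (91.5%), Bmx in 42 (89.4%), Hpgds in 38 (80.9%), Ptgs1 in 37 (78.7%), Alox5 in 33 (70.2%) and Ptprc in 18 (38.3%; Wilson 95% interval 25.8% to 52.6%, counting error only). Among the 1946 other cells, Hpgds was detected in 96 (4.93%), Ltc4s in 36 (1.85%), Alox5ap in 22 (1.13%), Ptprc in 10 (0.514%), Ptgs1 in 9 (0.462%), Bmx in 8 (0.411%) and Alox5 in 3 (0.154%). In enterocyte-like cells, the class used for the level that free RNA gives, Ltc4s and Hpgds were each seen in 3 of 173 cells, Ptgs1 and Ptprc in 1, and Alox5, Alox5ap and Bmx in 0 (at 3 counts of the total, up to 1.73% of cells with a UMI). The enterocyte-like cells were deeper, with a median of 27594 UMIs.

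The contrast stayed after depth was evened out. With each cell thinned to 2000 UMIs, which kept all 47 tuft-like and 1841 other cells, Alox5ap was detected in 30 tuft-like cells and in 1 other cell. The thinned numbers were 27 and 4 for Ltc4s, 23 and 12 for Hpgds, 22 and 1 for Bmx, 11 and 2 for Ptgs1, 9 and 1 for Alox5, and 8 and 4 for Ptprc.

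**Figure D1:**
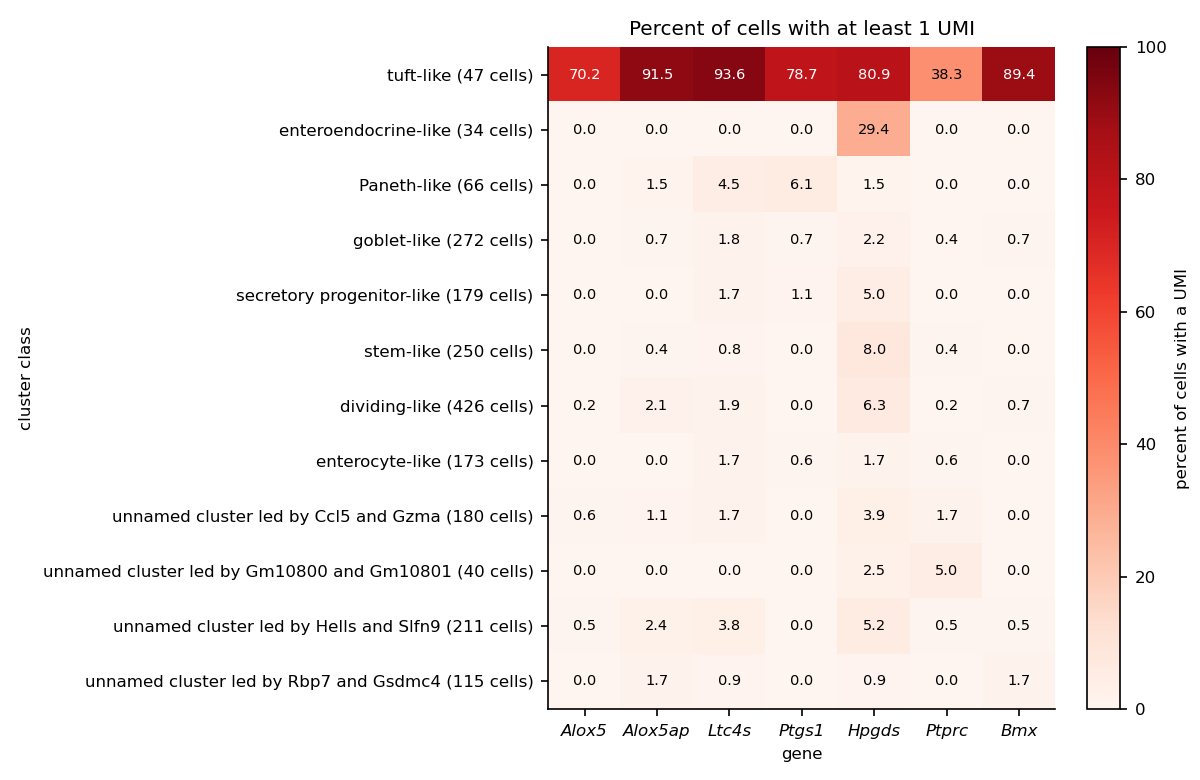
Percent of cells with at least 1 UMI of each of the 7 genes (columns) in each cluster class (rows). The tuft-like row stands apart for every gene, from 38.3% for Ptprc to 93.6% for Ltc4s, and the next highest entry is Hpgds in enteroendocrine-like cells, with 29.4%.

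Counted by molecule, the tuft-like cells held 97.3% of all Alox5 UMIs (107 of 110), 95.2% of Bmx (200 of 210), 94.7% of Alox5ap (516 of 545), 89.8% of Ptgs1 (149 of 166) and 88.7% of Ltc4s (297 of 335). The share was lower for Ptprc (71.8%, 61 of 85) and for Hpgds (65.3%, 256 of 392). The same share over the 10 tuft markers had a median of 96.0% and ranged from 30.1% for Il17rb to 98.7% for Rgs13.

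The genes were compared between the tuft-like cells and all other cells of the same mouse, in the 6 mice with at least 3 tuft-like cells (mice 1, 2, 4, 5, 6 and 8, in this order below). The tuft-like sums held 50497 to 334663 UMIs. In the leukotriene route, Alox5ap stood at 823, 529, 317, 830, 717 and 914 CPM in tuft-like cells, against 0, 0.615, 0.30, 0.224, 0.297 and 1.55 CPM in other cells. Ltc4s stood at 624, 319, 475, 432, 340 and 466 CPM in tuft-like cells, against 0.657, 0, 0.90, 0.894, 0.892 and 0.818 CPM in other cells. Alox5 stood at 142, 99.1, 139, 166, 37.8 and 206 CPM in tuft-like cells, and it was at 0 in the other cells of 4 mice, with 0.60 CPM in mouse 4 and 0.0909 CPM in mouse 8. For these genes the lowest tuft-like sum lay far above the highest sum of other cells, and mouse 6 was the lowest for Alox5.

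In the prostaglandin route, Ptgs1 stood at 241, 165, 59.4, 282, 113 and 272 CPM in tuft-like cells, against 0.657, 2.46, 0.90, 0.783, 0 and 0.0909 CPM in other cells. Hpgds stood at 511, 330, 198, 332, 245 and 433 CPM in tuft-like cells, against 9.20, 1.23, 4.2, 3.02, 5.05 and 2.55 CPM in other cells. Hpgds was thus the gene of the 7 with UMIs in the other cells of all 6 mice, and its groups did not overlap either.

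Of the leukocyte-type genes, Bmx stood at 284, 253, 158, 365, 510 and 296 CPM in tuft-like cells, against 0.328, 0, 0, 0.224, 0 and 0.455 CPM in other cells. Ptprc stood at 28.4, 121, 139, 49.8, 75.5 and 102 CPM in tuft-like cells, against 0, 1.23, 0, 0.783, 0.297 and 1.09 CPM in other cells. Mouse 1 was the lowest for Ptprc, and still lay above every sum of other cells.

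All 7 genes were called higher in tuft-like cells, where 12.6% of the 8238 genes tested were (edgeR quasi-likelihood test with mouse as a block, Benjamini-Hochberg adjustment over all genes tested). A gene that is near 0 elsewhere passes the filter on low counts through its tuft-like sums, so the count adds nothing to the values. In this test the log2 fold change was 9.80 ± 0.26 for Alox5ap (SE, adjusted p = 5.97e-150), 9.79 ± 0.45 for Alox5 (3.77e-74) and 8.79 ± 0.27 for Ltc4s (1.23e-126). It was 8.22 ± 0.37 for Ptgs1 (2.63e-77) and 6.23 ± 0.25 for Hpgds (1.47e-91), and 9.76 ± 0.35 for Bmx (4.40e-103) and 6.57 ± 0.40 for Ptprc (1.15e-46). Where a gene was at 0 in some sums the fitted value depends on the prior count. The median over all genes tested was -0.18. Each of the 7 was higher in 6 of 6 mice (exact two-sided sign-flip test, p = 0.03125, the smallest that 6 mice allow). The 7 were taken as known tuft cell genes, with earlier results of these data known, so the p-values lend no further support. Without mouse 8, which gave the most tuft-like cells, the number of genes called in either direction fell to 1918, against 3007 with it, and 7 of 7 were still called.

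**Figure D2:**
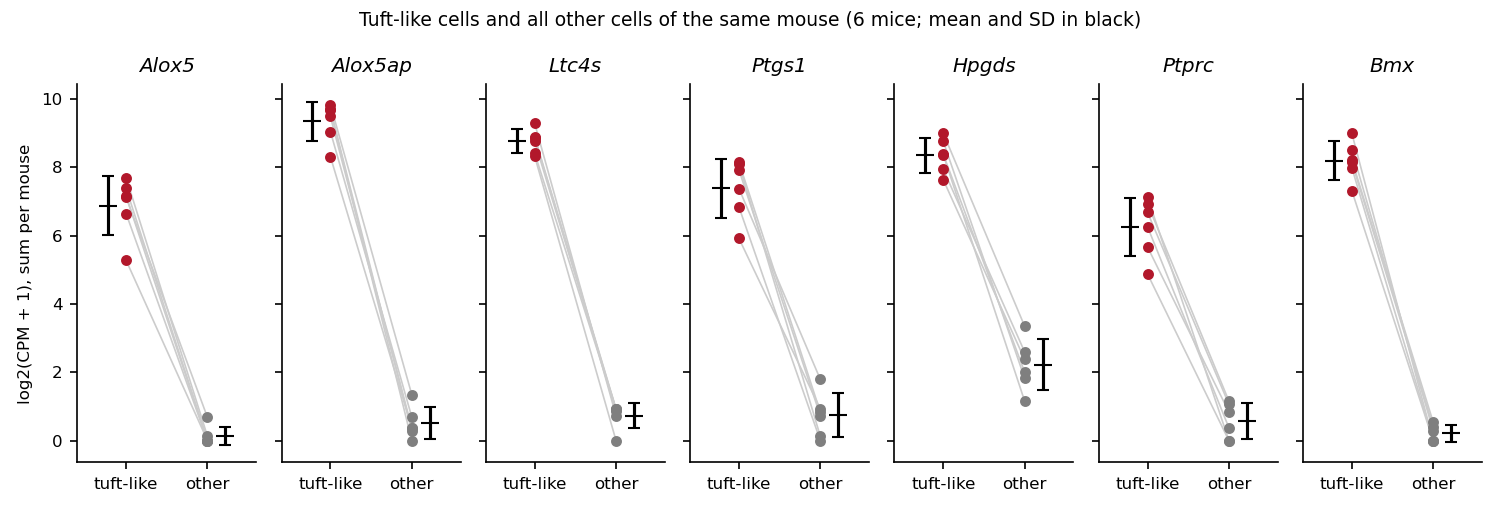
Each panel is 1 gene and each line 1 of 6 mice, from its tuft-like cells on the left to its other cells on the right, as log2(CPM + 1) of the summed counts, with mean and SD in black. Every line falls from left to right; Hpgds has the highest level in other cells, with a mean of 4.21 ± 2.78 CPM.

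Within the tuft-like cluster most cells held several of the genes. Of the 47 cells, 13 had a UMI of all 7 genes, 14 of 6, 8 of 5, 7 of 4, 2 of 3 and 3 of 2, and no cell lacked all 5 eicosanoid genes. Alox5, Alox5ap and Ltc4s were all detected in 33 cells, which were all the cells with Alox5. Ptgs1 and Hpgds were detected together in 29 cells, and all 5 eicosanoid genes in 25. Genes that are each in most cells meet in many cells whatever their relation, and these numbers were not set against that. The 3 cells with 2 genes had 3616 to 10615 UMIs, and 14 to 49 UMIs over the tuft markers, where the median tuft-like cell had 86. Depth moved with detection for most genes: cells with an Alox5 UMI had a median of 15541 UMIs, against 6993.5 in those without, and for Hpgds the medians were 12033 and 7063. For Ptprc they lay the other way, with 9620.5 and 10615. The part of depth in these patterns was not tested.

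Per cell, Alox5ap reached 61 UMIs with a median of 5, Ltc4s 37 with a median of 4, Hpgds 21 with a median of 4, Bmx 20 with a median of 3 and Ptgs1 16 with a median of 2. Alox5 reached 18 UMIs with a median of 1 and Ptprc 15 with a median of 0. Across the 47 cells, which share mice and libraries, the highest rank correlation of CPM among the 21 pairs was between Alox5ap and Ltc4s (Spearman's rho 0.51), followed by Alox5 and Ptprc (0.47) and Ltc4s and Ptgs1 (0.42). The lowest were Hpgds with Ptprc (-0.20) and Hpgds with Bmx (-0.18). For Ptgs1 and Hpgds, the genes of the prostaglandin route, rho was 0.08, and for Ltc4s and Hpgds it was -0.02. With the summed tuft markers, rho was 0.57 for Bmx, 0.53 for Ptprc and 0.08 for Hpgds. With the mitochondrial share of a cell it was -0.45 for Alox5ap and 0.25 for Ptprc. These counts are sparse, and the values are descriptions.

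**Figure D3:**
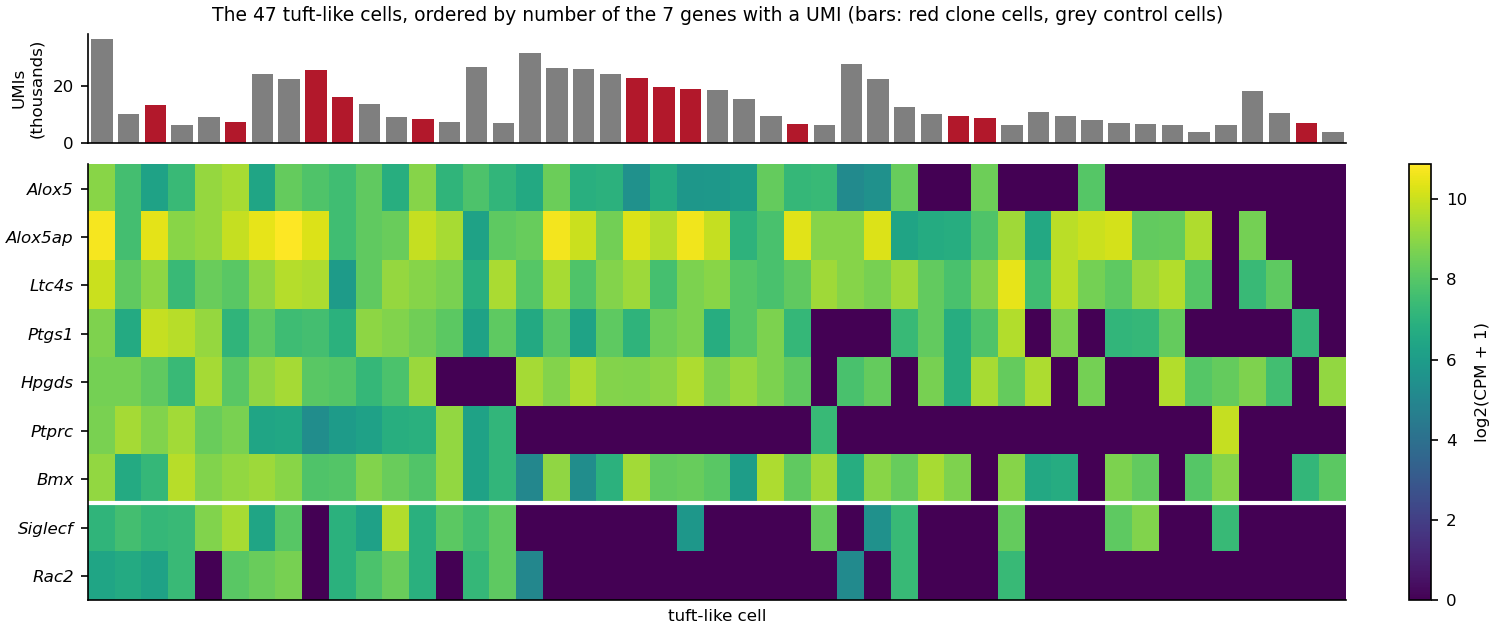
The 47 tuft-like cells as columns, ordered by how many of the 7 genes had a UMI, with the UMIs of each cell as bars on top (red for clone cells, grey for control cells) and the level of the 7 genes, Siglecf and Rac2 as shades. The 13 cells with all 7 genes stand at one end, and Siglecf and Rac2 are bright (a higher level) mostly where Ptprc is.

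Ptprc divided the tuft-like cells. Of the 18 cells with a Ptprc UMI, 17 also had Siglecf, a sialic acid receptor of eosinophils and tuft cells, against 6 of the 29 without Ptprc. Rac2, a GTPase of blood cells, was detected in 13 of the 18 and in 4 of the 29, and the lipid phosphatase gene Inpp5d in 18 and in 19. Alox5 was detected in 17 of the 18 cells with Ptprc (266 CPM over the cells) and in 16 of the 29 without (95.7 CPM). Hpgds went the other way in level, with 14 of 18 cells (317 CPM) and 24 of 29 cells (429 CPM), and Alox5ap was found in 17 of 18 and in 26 of 29. Other genes of the lists differed less or lay the other way: Pik3cg stood at 395 CPM in cells with Ptprc and 385 CPM in those without, Spib at 266 and 238 CPM, and Il13ra1 at 431 and 623 CPM. Of the 17 leukocyte-type genes with a UMI in these cells, 15 had a higher level in cells with Ptprc, as had 8 of the 10 tuft markers, among them Trpm5 (845 and 527 CPM) and Sh2d6 (1237 and 753 CPM). The interleukin 25 gene was detected in 4 of 18 and in 9 of 29. The genes named here were picked from the lists after their values were seen, and the division rests on single UMIs, so no test is given. None of the 47 cells had 3 or more of the 16 leukocyte markers. Whether the CD45 stain set the share with Ptprc was not tested.

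The genes around these enzymes were read from lists. The list genes, unlike the 7, could take part in the clustering, so their counts are descriptions. Of 20 leukocyte-type signalling genes, 14 were tested and 14 were called higher in tuft-like cells (median log2 fold change 7.45, against -0.18 over all genes tested, of which 12.6% were called higher). As for the 7, a gene near 0 elsewhere passes the filter on low counts mainly through its tuft-like sums, so the count lends no support. Not all of the 14 were near 0 elsewhere. In other cells Ptpn18 had a mean of 47.7 ± 7.06 CPM, Lyn 38.7 ± 13.4 CPM, Il13ra1 37.5 ± 7.91 CPM and Il4ra 16.3 ± 4.07 CPM (SD, n = 6). Among the 14 were the adaptor Fyb (9.17 ± 0.24, SE, in edgeR), the PI3-kinase subunits Pik3r5 (10.71 ± 0.36) and Pik3cg (9.21 ± 0.30), the transcription factor Spib (9.60 ± 0.37), Siglecf (8.98 ± 0.48) and Inpp5d (8.66 ± 0.35). Vav1 (6.23 ± 0.26), Plcg2 (5.91 ± 0.25), Ptpn6 (5.47 ± 0.23), Il13ra1 (3.6 ± 0.18), Ptpn18 (3.4 ± 0.17), Lyn (2.13 ± 0.22) and Il4ra (1.40 ± 0.36) were also among them. The other 6 did not pass the filter on low counts. Of these, Rac2 had 45 UMIs in tuft-like cells and 20 in other cells, Lcp1 2 and 529, Coro1a 1 and 6, Ptpn22 0 and 105, Laptm5 0 and 11, and Was 0 and 5. The mean level of Lcp1, an actin-bundling protein of leukocytes, was 2.86 ± 5.68 CPM in tuft-like cells and 11.9 ± 3.89 CPM in other cells (SD, n = 6). Of the other 4 kinases of the Tec family, Tec alone was tested and was called higher (1.43 ± 0.35), and Btk had 0 UMIs in tuft-like cells.

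The rest of the eicosanoid pathway held genes called in either direction, where 12.6% of all genes tested were called higher and 23.9% lower. Of 10 phospholipases A2, which free arachidonic acid, 4 were tested: Pla2g4a was called higher (2.50 ± 0.21; 221 ± 47.1 CPM in tuft-like cells, against 34.3 ± 6.88 CPM in others, SD, n = 6), and Pla2g5 (-2.61 ± 0.83) and Pla2g10 (-2.86 ± 0.53) were called lower. Of 12 prostanoid enzymes, 7 were tested: Cbr1 (0.82 ± 0.24) and Akr1b3 (0.92 ± 0.24) were called higher, and Ptges2 (-1.35 ± 0.55), Ptges3 (-0.69 ± 0.20) and Ptgr1 (-4.64 ± 0.83) lower. Ptgs2, the inducible cyclooxygenase, had 0 UMIs in tuft-like and in other cells. Of 13 leukotriene and lipoxygenase enzymes, 4 were tested: Mgst3 was called higher (2.34 ± 0.17), and Lta4h, which makes leukotriene B4 from the same intermediate as Ltc4s uses, was called lower (-1.20 ± 0.29; 39.4 ± 36.9 CPM in tuft-like cells, against 87.1 ± 4.02 CPM in others). Mgst2 (-1.32 ± 0.22) and Dpep1 were also called lower, Dpep1 with 0 UMIs in tuft-like cells, at least 3.74-fold lower at the limit of 3 counts over the group. Of 17 receptors and transporters, 2 were tested, of which Ptger4 was called lower (-1.41 ± 0.40) and Abcc1 was not called.

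Of 10 tuft effectors and regulators, 4 were tested. Hmx2 (9.89 ± 0.43), Chat, the acetylcholine enzyme (9.37 ± 0.45), and Gfi1b were called higher, Gfi1b at least 300.6-fold at 3 counts over the other cells, where it had 0 UMIs. Itpr3 was called lower (-0.75 ± 0.31). Il25 did not pass the filter, with 21 UMIs in the tuft-like cells of the 6 mice and 0 in their other cells, which makes it at least 332-fold higher.

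The likeness of each gene to all others was taken as Pearson's r of log2 CPM across 84 sums per mouse and class, of which 6 were tuft-like sums, over 11044 genes. The nearest were Ly6g6f for Alox5 (0.97), Hmx3 for Alox5ap (0.98) and for Bmx (0.99), Pik3r5 for Ltc4s (0.96), Pik3cg for Ptgs1 (0.96), Strip2 for Ptprc (0.93) and Dmxl2 for Hpgds (0.90). Next came Plcb2 and Dgki for Alox5, Ly6g6f and Trpm5 for Alox5ap, Ly6g6f and Hmx3 for Ltc4s, and Spib and Avil for Ptgs1. They were Map1a and Limd2 for Hpgds, Sh2d6 and Fyb for Ptprc, and Plcb2 and Trpm5 for Bmx. The sums share mice and libraries, and the 6 tuft-like sums weigh heavily in r.

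Outside the tuft-like cluster, Hpgds was the gene with a further class of cells. Over mice with at least 3 cells of a class, its level was 342 ± 116 CPM in tuft-like cells (SD, n = 6), 46.9 ± 27.5 CPM in enteroendocrine-like cells (n = 5), 7.59 ± 8.46 CPM in stem-like cells (n = 8) and 5.33 ± 14.1 CPM in Paneth-like cells (n = 7, of which 6 were at 0). It was 3.6 ± 3.35 CPM in dividing cells, 3.06 ± 4.14 CPM in secretory progenitor-like cells, 1.38 ± 2.42 CPM in goblet-like cells and 0.392 ± 1.11 CPM in enterocyte-like cells (n = 8 each). In the unnamed clusters it lay between 0 and 4.44 CPM. From stem-like cells downwards, neighbours in this order lay within their spread.

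Enteroendocrine cells are the hormone-making cells of the epithelium. Hpgds was detected in 10 of the 34 enteroendocrine-like cells (29.4%, Wilson 95% interval 16.8% to 46.2%, 24 UMIs), against 20 of 250 stem-like cells (8.0%), 27 of 426 dividing cells (6.34%), 9 of 179 secretory progenitor-like cells (5.03%), 6 of 272 goblet-like cells (2.21%) and 3 of 173 enterocyte-like cells (1.73%). The median depths were 16144.5 UMIs in enteroendocrine-like and 27594 UMIs in enterocyte-like cells. Thinned to 2000 UMIs, 1 of the 34 cells kept a Hpgds UMI, too few to read. Alox5, Alox5ap, Ltc4s, Ptgs1, Ptprc and Bmx had 0 UMIs in the 34 cells (at 3 counts of the total, up to 8.82% of cells with a UMI, which does not limit the cells that express the gene).

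By mouse (1, 3, 5, 6 and 8), Hpgds stood at 81.8, 8.96, 50.0, 33.4 and 60.1 CPM in enteroendocrine-like cells, against 6.47, 0.586, 2.70, 4.54 and 1.93 CPM in the remaining cells that were not tuft-like. It was higher in 5 of 5 mice, and mouse 3 was the lowest in both. In the same order, 3 of 5, 1 of 12, 1 of 3, 1 of 5 and 3 of 7 enteroendocrine-like cells had a Hpgds UMI. In mice 3, 5 and 6 the value thus rests on 1 cell, with 2, 3 and 2 UMIs. edgeR gave a log2 fold change of 3.66 ± 0.51 (SE, adjusted p = 6.42e-08), in a fit in which 13.9% of 9525 genes were called higher. This fit used mice with at least 3 cells of the class, a limit set after the cell numbers were seen. Leaving out 1 mouse at a time gave 3.30 to 3.87. In this fit Hpgds passed the filter on low counts mainly through its enteroendocrine-like sums, so the call adds nothing to the values. The other 6 genes did not pass it. In the fits of stem-like, dividing, secretory progenitor-like, goblet-like and enterocyte-like cells, none of the 7 genes passed that filter, so they were not tested there.

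The 10 enteroendocrine-like cells with Hpgds differed from the 24 without in the detection of some hormone genes. Gcg, the glucagon and GLP-1 gene, was detected in 7 of the 10 (32644 CPM over the cells) and in 2 of the 24 (326 CPM), and Cck in 8 and in 12. Neurog3, the factor of early endocrine precursors, was detected in 0 of the 10 and 13 of the 24, Tac1 in 3 and in 12, and Tph1, of serotonin synthesis, in 2 and in 9. Chga was detected in 9 of the 10 and 21 of the 24, Chgb in 9 and in 20, and Neurod1 in 10 and in 21. Of the tuft genes looked at, Trpm5 and Pou2f3 had 0 UMIs in both sets of cells, and Dclk1 was detected in 1 of the 10 (21.4 CPM) and in 1 of the 24 (4.91 CPM). The median depth was 19163 UMIs with Hpgds and 14533.5 UMIs without. The cells were divided by the gene itself, so no test is given. Mouse 3 gave 12 of the enteroendocrine-like cells but 1 of the 10 with Hpgds, so the division is mixed with mouse, whose part was not tested.

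**Figure D4:**
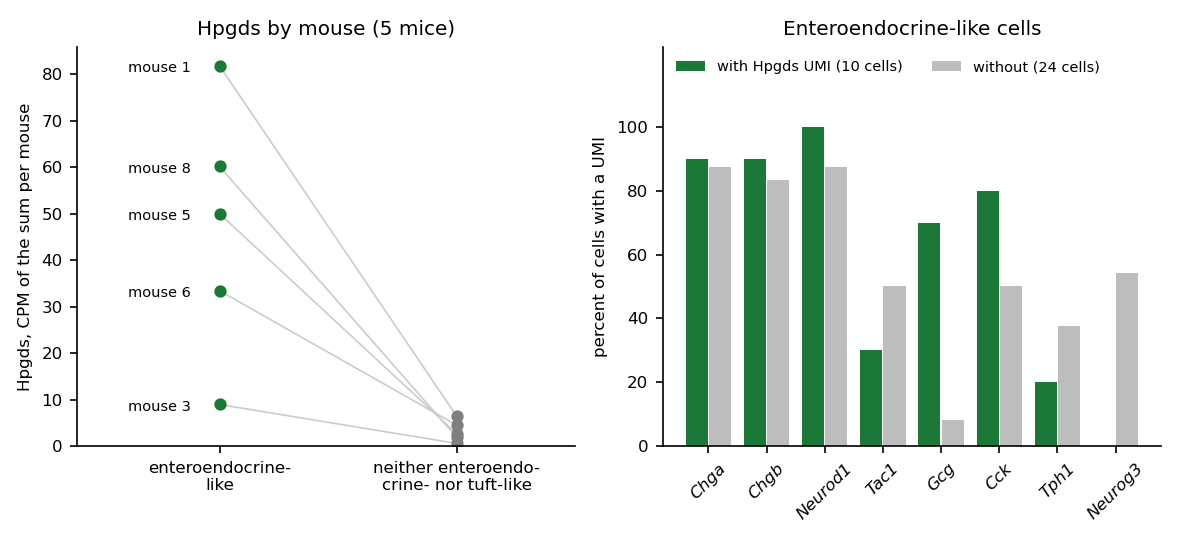
Left, Hpgds in CPM for 5 mice, with enteroendocrine-like cells on the left and the remaining cells that are not tuft-like on the right. Right, the percent of enteroendocrine-like cells with a UMI of each hormone or precursor gene, for the 10 cells with Hpgds beside the 24 without; Gcg is in 7 of 10 and 2 of 24, Neurog3 in 0 of 10 and 13 of 24.

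The other 6 genes had low and scattered counts outside the tuft-like cluster. The highest class mean was 0.798 CPM for Alox5, 1.43 CPM for Alox5ap, 1.29 CPM for Bmx and 3.73 CPM for Ltc4s. For Ptgs1 it was 12.0 ± 25.3 CPM in Paneth-like cells, with 8 UMIs in 4 of 66 cells and 4 of 7 mice at 0, and for Ptprc 7.77 ± 13.5 CPM in a shallow cluster led by Gm10800 and Gm10801, with 2 of 3 mice at 0. Of the 1946 cells, 1771 had none of the 7 genes, 167 had 1, 7 had 2 and 1 had 3. The cell with 3 was from a clone of mouse 5 in the secretory progenitor-like cluster, had 4385 UMIs and 4 of the 10 tuft markers, and held 1 UMI each of Ltc4s, Ptgs1 and Hpgds. A dividing cell from a clone of mouse 8 had 47348 UMIs and all 10 tuft markers with 47 UMIs, and held 6 Alox5ap UMIs and 1 of Bmx. Barcodes with several hashtags were removed, but a droplet holding 2 cells of 1 mouse would remain.

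The Ptprc UMIs outside the cluster came mostly from cells with leukocyte markers. Of its 24 UMIs there, 16 came from 3 cells in which at least 3 of the 16 leukocyte markers had a UMI: 9 and 6 from cells of a cluster led by Ccl5 and Gzma and 1 from a cell of the shallow cluster. Without these 3 cells, 8 UMIs were left in the other cells. In this alternative, chosen after seeing the data, edgeR put the log2 fold change of Ptprc in tuft-like cells at 8.10 ± 0.46 (SE, adjusted p = 3.24e-54). No tuft-like cell was removed, so a rise was set by the removal, and the value lends no support.

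The clones were then set against the control cells in sums over all cells of a mouse and gate. In such sums, fewer cells of a type and less RNA per cell cannot be told apart. The 48 h clones held 110 cells and 747178 UMIs, against 586 cells in the 48 h control, and the 72 h clones held 631 cells, against 666 in the 72 h control. Tuft-like cells numbered 0 of 110 in the 48 h clones, which allows up to 2.73%, and 14 of 586 in their control. Mouse 3 gave 83 of the 110 (median 1841 UMIs) and had 0 tuft-like cells among its 218 control cells too; without it 27 clone cells were left, and the limit was 11.1%. Tuft-like cells numbered 12 of 631 in the 72 h clones and 21 of 666 in their control. Of the 12 in clones, 10 came from mouse 8. The numbers of tuft-like cells moved with the values that follow, and their part in them was not tested.

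Alox5ap stood at 0, 4.10, 3.35 and 0 CPM in the 48 h clones of mice 1 to 4, against 19.1, 32.6, 0.198 and 5.22 CPM in their control cells. It stood at 2.62, 1.23, 2.09 and 24.3 CPM in the 72 h clones of mice 5 to 8, against 8.10, 14.6, 0.513 and 33.9 CPM in their control cells. Mouse 8 was the highest in both 72 h groups, and the groups overlapped at either time. Hpgds stood at 0, 4.10, 0 and 0 CPM in the 48 h clones, against 21.1, 21.1, 0.992 and 7.37 CPM in control cells, and at 2.88, 4.92, 2.61 and 12.6 CPM in the 72 h clones, against 6.94, 9.99, 6.15 and 18.7 CPM in control cells. Hpgds was lower in the clone sum than in the control sum in 8 of 8 mice, and the groups overlapped at both times. The 48 h clones held 1 Hpgds UMI in all, so the direction in the 48 h mice is not read.

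Alox5, Ltc4s, Ptgs1 and Bmx had 0 UMIs in the 48 h clones, where 3 counts over the group would be 4.02 CPM. In the 48 h control their means were 3.04 ± 2.51 CPM for Alox5, 11.0 ± 8.26 CPM for Ltc4s, 5.25 ± 5.74 CPM for Ptgs1 and 6.35 ± 6.76 CPM for Bmx (SD, n = 4), so that a loss of Alox5 was not detectable at this depth. The limit is over the pooled group, and the means are over mice. Pooled in the same way, Ptgs1 and Bmx, with 44 and 54 of the 12808339 UMIs of the 48 h control, lay near the limit. A loss of either is therefore not read. Ptprc was at 3.72 ± 4.34 CPM in the 48 h clones, from 4 UMIs, and at 2.57 ± 3.39 CPM in the control. At 72 h the means in clones and in control were 1.13 ± 2.08 and 2.79 ± 3.98 CPM for Alox5, 4.68 ± 4.17 and 8.46 ± 7.48 CPM for Ltc4s and 2.24 ± 3.36 and 3.86 ± 4.00 CPM for Ptgs1. They were 0.942 ± 1.12 and 2.29 ± 2.89 CPM for Ptprc and 3.32 ± 3.74 and 6.12 ± 4.66 CPM for Bmx. By mouse at 72 h, Ltc4s stood at 2.10, 3.69, 2.09 and 10.8 CPM in clones, against 5.01, 6.91, 2.56 and 19.4 CPM in control cells, and Bmx at 0.524, 4.92, 0 and 7.85 CPM in clones, against 4.24, 8.83, 0.513 and 10.9 CPM in control cells. Ltc4s, Hpgds and Bmx were thus lower in the clone in 4 of 4 mice at 72 h, and also in 4 of 4 at 48 h, where Ltc4s and Bmx had 0 UMIs in clones. The 48 h clone sums held 77566 to 298850 UMIs, and a clone at 0 is lower wherever its control has any UMI. The 4 of 4 at 48 h is therefore not read. Alox5, Alox5ap and Ptgs1 were lower in 3 of 4 mice at 72 h and Ptprc in 2 of 4; a two-sided sign-flip test over 4 mice cannot go below an exact p of 0.125.

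None of the genes was called between clones and control, or between times. Of the 7, 6 passed the filter (Alox5 did not), and of 10606 genes 0.0% were called at 48 h and at 72 h between clones and control, 0.0% between times in clones, 0.0849% (9 genes) between times in control cells and 0.0% in the change of the difference (edgeR quasi-likelihood test, pool as covariate). At an unadjusted p under 0.05 the numbers were 1271, 842, 664, 575 and 554, and DESeq2 called 63, 8, 1, 19 and 2. In edgeR the 72 h clone against control difference (log2) was -1.21 ± 0.89 for Alox5ap (SE, adjusted p = 0.720), -1.03 ± 0.64 for Hpgds (0.684), -1.0 ± 0.78 for Ltc4s (0.743), -1.04 ± 1.04 for Ptgs1 (0.805), -1.24 ± 0.90 for Bmx (0.720) and -0.90 ± 0.98 for Ptprc (0.83). With mouse as a block, edgeR called 9, 90 and 5 genes at 48 h, at 72 h and in the change of the difference, and none of the 7. The nearest was Hpgds at 72 h, at -0.92 ± 0.24 (adjusted p = 0.0806). The fit with pool leaves out the pairing of clone and control within a mouse. With the block, edgeR put the 72 h difference at -0.92 ± 0.34 for Alox5ap (adjusted p = 0.218), -0.95 ± 0.28 for Ltc4s (0.126) and -0.97 ± 0.46 for Ptgs1 (0.372). It was -1.03 ± 0.40 for Bmx (0.265) and -1.05 ± 0.65 for Ptprc (0.507). Without the filter on low counts, edgeR called Ltc4s at 48 h (adjusted p = 0.0149) and Alox5ap (0.0361) and Hpgds (0.0456) at 72 h, all lower in clones than in control. A p that misses the threshold does not show that clones and control were alike.

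**Figure D5:**
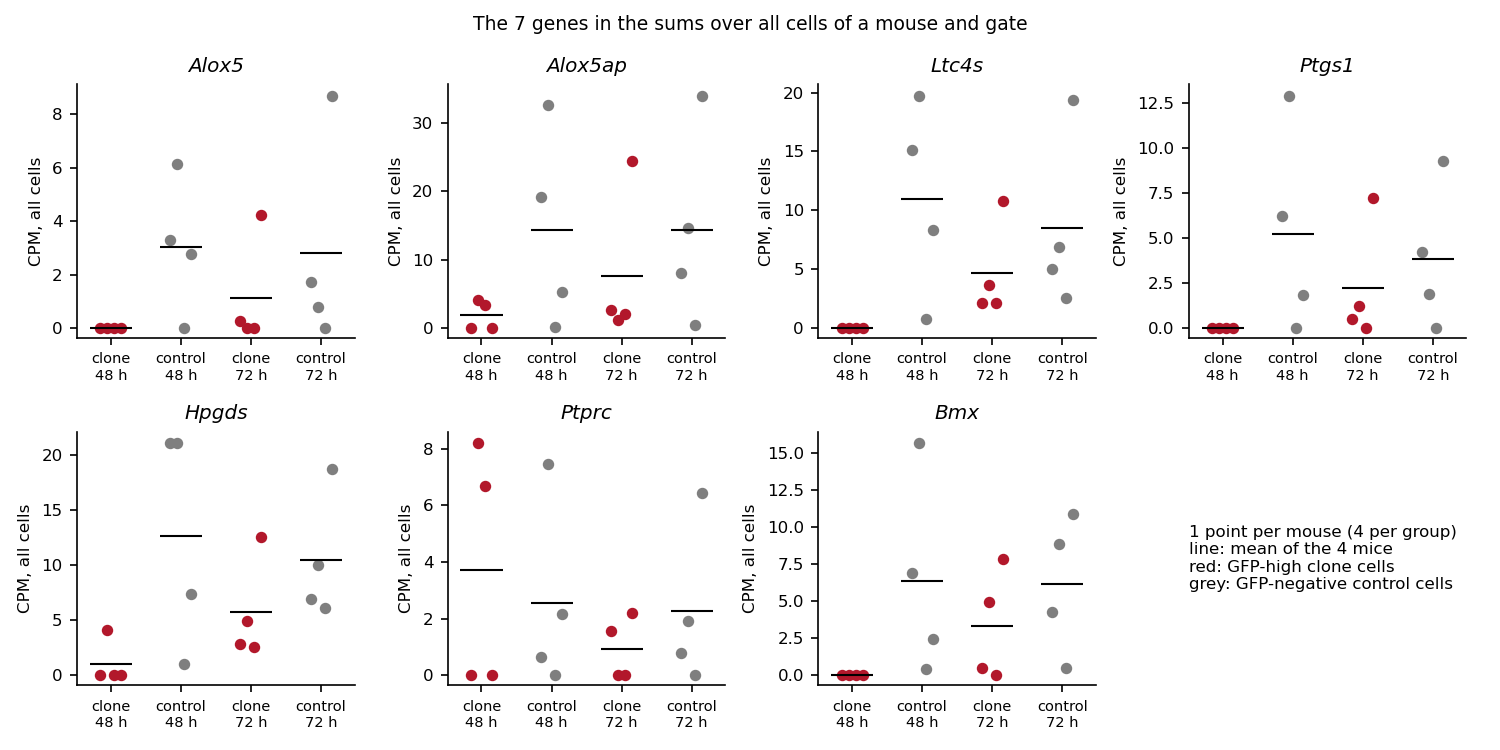
Each panel is 1 gene, in CPM of the sum over all cells of a mouse and gate, with clone beside control at 48 h and at 72 h and 4 mice in each. Mouse 8 is the highest of the 72 h clones for all 7 genes, and Alox5, Ltc4s, Ptgs1 and Bmx are at 0 in all 4 of the 48 h clones.

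Inside the tuft-like cells, mouse 8 alone had enough in both gates to set side by side. Over 10 clone cells and 11 control cells, Alox5ap stood at 976 CPM in clone cells (exact Poisson 95% interval 823 to 1149, counting error only) and 866 CPM in control cells (738 to 1010). Hpgds stood at 420 CPM (322 to 539) in clone cells and 444 CPM (353 to 550) in control cells, and Ptprc at 81.3 CPM (42 to 142) in clone cells and 118 CPM (73.7 to 178) in control cells. The intervals of Alox5, Ltc4s, Ptgs1 and Bmx overlapped as well, and with 1 mouse there is no test. Clone and control cells of mouse 8 came from different pools.

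In control tuft-like cells, 3 mice traced for 72 h (5, 6 and 8) could be set against 3 traced for 48 h (1, 2 and 4). edgeR called 0 of 970 genes tested, with 65 at an unadjusted p under 0.05. Without mouse 1 it called 10 genes and without mouse 4 it called 1, none of them among the 7. The log2 difference, 72 h over 48 h, was 0.67 ± 0.33 for Bmx (SE, adjusted p = 0.750), 0.60 ± 0.29 for Alox5ap (0.732), 0.52 ± 0.42 for Ptgs1 (0.868), 0.10 ± 0.32 for Hpgds (0.951) and -0.02 ± 0.28 for Ltc4s (0.984). Alox5 and Ptprc did not pass the filter on low counts in this fit.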

How the data were processed

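The deposited matrices hold counts (UMIs of each gene, and of each hashtag antibody, in every barcode) from Cell Ranger 6.1.2 and mm10, per the submitters' processing notes; the other values deposited are lists of gene identifiers, gene names and barcodes. The authors' cell filters and hashtag caller are not given in the sources used here.

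Pool 1 held 3342 barcodes (median 4352.5 UMIs) and pool 2 held 2110 (7649.5 UMIs), with 1 barcode sequence in both. HTODemux (Seurat 5.3.0, quantile 0.99) assigned 1 hashtag to 4029 barcodes. Of these, 1993 (49.5%) passed the cell filter: 1000 or more UMIs, 500 or more genes, and a mitochondrial share below 20%. Barcodes with several hashtags were removed and no doublet caller was run. Hashtag and pool gave mouse and gate, per the labels. Cells were clustered in scanpy 1.11.5 (2000 variable genes without the 7, 30 components, 15 neighbours, Leiden resolution 1.0) and clusters named from marker lists: 2 or more of a list's markers had to be among the 50 leading genes, and 50% of them raised 2-fold. The rule that named the tuft-like cluster and the members and lists were chosen with earlier results of these data known.

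Counts were summed per mouse and class, or per mouse and gate, and tested two-sided with edgeR 4.0.16 (filterByExpr, TMM, quasi-likelihood test, Benjamini-Hochberg adjustment, called at 0.05); DESeq2 1.42.0 was an alternative. CPM is a gene's UMIs over the sum's total, at edgeR's usual scale. The mouse is the replicate. Clone and control sums of a mouse come from the same animal, per the labels, and so pair; mouse was a block between classes and an alternative between gates. Intervals, and limits set at 3 counts where 0 were seen, cover counting error only. Named genes are the 7, list genes called between tuft-like and other cells, and the 3 nearest genes of each; Rac2, Il25, tuft markers, list genes not tested, hormone genes and cluster leaders were added after their values were seen. Some list genes are not reported here. The scripts were tested on simulated data.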

Additional observations from a re-analysis of the deposited data

Results flagged for a closer look

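Of 42 groups of 4 or 6 sums in which an outlying mouse was looked for, 7 held one. The chance rate of the rule, about 1 group in 20, is for normally distributed values. Many sums here are at or near 0, where 1 UMI can flag a mouse, so the number is not set against that rate. In the 72 h clones, mouse 8 stood apart from the other 3 for Alox5 (4.24 CPM), Alox5ap (24.3 CPM) and Ptgs1 (7.22 CPM); it gave 10 of the 12 tuft-like clone cells. In the 48 h clones, mouse 2 stood apart for Hpgds, with 4.10 CPM from 1 UMI. Among the sums of other cells, mouse 4 stood apart for Alox5 (0.60 CPM), mouse 2 for Ptgs1 (2.46 CPM) and, at the low end, mouse 2 for Ltc4s (0 CPM).

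Barcodes that the comparisons did not use also held tuft cells by their markers (at least 5 UMIs over the tuft markers and at least 3 of them detected). There were 10 such barcodes among 493 with several hashtags, 0 among 930 with none, and 24 among 2036 with 1 hashtag that failed the cell filter. The 24 had a median of 2848 UMIs and 40.9% mitochondrial UMIs. In them Ptprc stood at 404 CPM and Alox5ap at 317 CPM, against 84.4 and 722 CPM in the 50 cells of the used set marked in the same way. The difference was not tested.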

How the results depend on the processing

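Between tuft-like and other cells, the 7 genes kept their direction and their call in each alternative that could test them, with log2 fold changes from 5.88 (Hpgds) to 11.11 (Alox5), and 7 of 7 were called without the replicate block, with DESeq2 and without any 1 mouse. At a mitochondrial limit of 50%, 1 of 7 was called because the other 6 did not pass the filter on low counts; with that limit and no such filter, an alternative chosen after seeing the data, 7 of 7 were. Without a filter on low counts, 1 gene was called at 48 h (Ltc4s, adjusted p = 0.0149) and 2 at 72 h (Alox5ap, 0.0361, and Hpgds, 0.0456) between clones and control, all lower in clones. Hpgds was also called in 1 fit of stem-like cells (limit 50%) and 1 of goblet-like cells (no filter, chosen after seeing the data). In the main setting its mean was 7.59 ± 8.46 CPM in stem-like cells, with 2 of 8 mice at 0 (SD). In goblet-like cells it was 1.38 ± 2.42 CPM, with 5 of 8 mice at 0, and neither call is read further.

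At a mitochondrial limit of 50%, which gave 68 tuft-like cells, the share of them with a UMI was 76.5% for Bmx, then the highest, 73.5% for Hpgds, 72.1% for Alox5ap, 69.1% for Ltc4s, 66.2% for Ptgs1, 58.8% for Alox5 and 36.8% for Ptprc.

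With mouse as a replicate block, calls over all genes between clones and control went to 9 at 48 h and 90 at 72 h, and to 5 for the change of the difference; it changed no other call of the 7 genes. In the 5 gate comparisons (clones over control at 48 h, then at 72 h; time in clones; time in control; change of the difference), edgeR called 427, 297, 132, 187 and 115 genes without the filter and DESeq2 63, 8, 1, 19 and 2 with it, against 0, 0, 0, 9 and 0 in edgeR with it. Without mouse 8, the 72 h against 48 h count in control cells was 53; it was 18 without mouse 5, 2 without mouse 2, 1 without mouse 7 and 0 without mouse 1, 3 or 4.

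Directions that turned, none of them called: with a top hashtag of at least 70%, the change of the difference of Alox5ap was -0.22, against 0.97. Leaving out 1 mouse gave, for 72 h against 48 h in control cells, -1.14 to 1.04 for Ptprc, -0.14 to 1.10 for Ptgs1, -0.64 to 0.66 for Hpgds, -1.18 to 0.55 for Ltc4s, -0.98 to 1.48 for Alox5ap and -0.54 to 1.24 for Bmx; for 72 h clones against control, -1.72 to 0.36 for Ptprc; and within tuft-like cells, -0.26 to 0.24 for Ltc4s and -0.15 to 0.44 for Hpgds. The cause was not tested. The limits are few tuft-like cells (47), of which mouse 8 gave 21, and shallow 48 h clones.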
